A study of Mus musculus with 9 samples.

Results

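The factors and markers of the epithelial-mesenchymal transition (EMT) were examined in the MC38 transcriptomes as 10 genes taken by name: the transcription factors Snai1, Snai2, Twist1, Zeb1 and Zeb2, the epithelial surface proteins Cdh1 and Epcam, and the mesenchymal products Cdh2, Vim and Fn1. All 10 were among the 16399 genes listed, and 9 of them were among the 11287 genes tested, since Cdh1 did not reach 1 TPM in any library. MC38 is a mouse colon carcinoma line grown from a C57BL/6 tumor. MC38-P, the parental population, was compared with 2 liver metastatic derivatives, named MC38-LM3a and MC38-LM3b, 3 replicate cultures each and 9 libraries in all. Selection took place in mice with an intact immune system. Cells placed in the spleen seeded the liver, tumor cells were recovered from the metastases and grown, and these went into the next round. LM3 is the third generation, and the paper calls the 2 lines independently derived. It names a single MC38-LM1 and a single MC38-LM2 before them, so earlier rounds may have been shared. Cells of every group, the parental ones included, carry GFP and firefly luciferase. Whether a derivative is 1 clone is not given in the sources used here, and no time point or drug treatment divides the groups.

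In an EMT, epithelial cells give up the contacts that hold them in a sheet and take on a migratory, matrix-bound state. Factors of the Snail, Twist and Zeb families bind E-boxes (CANNTG) and repress epithelial genes, of which E-cadherin (Cdh1) is the best known, while N-cadherin (Cdh2), the intermediate filament protein vimentin (Vim) and the matrix glycoprotein fibronectin (Fn1) are the usual mesenchymal readouts. In carcinomas the program is often partial, so that keratins and mesenchymal genes are found in the same cells.

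Because the repressors of this program read E-boxes, the upstream sequence of the genes was searched for the CACCTG form that Snail and Zeb proteins prefer and for its reverse complement CAGGTG, so that either strand was covered. RefSeq windows of the GRCm38.p6 build were given for 5 of the 10 genes, and in each the 250 bases before the annotated start were read, with the base next to the start as position -1. Capitals mark the matches. Epcam is shown because it fell in both derivatives and its window held 2 matches, at -187 and -19, and Snai1 because its window held 1 match, at -126.
Epcam (chr17:87635729-87635978, plus strand): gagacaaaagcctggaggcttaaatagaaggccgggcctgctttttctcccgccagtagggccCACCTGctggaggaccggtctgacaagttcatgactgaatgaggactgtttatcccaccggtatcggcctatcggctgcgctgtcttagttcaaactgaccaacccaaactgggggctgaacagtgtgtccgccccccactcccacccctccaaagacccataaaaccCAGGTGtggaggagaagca
Snai1 (chr2:167537945-167538194, plus strand): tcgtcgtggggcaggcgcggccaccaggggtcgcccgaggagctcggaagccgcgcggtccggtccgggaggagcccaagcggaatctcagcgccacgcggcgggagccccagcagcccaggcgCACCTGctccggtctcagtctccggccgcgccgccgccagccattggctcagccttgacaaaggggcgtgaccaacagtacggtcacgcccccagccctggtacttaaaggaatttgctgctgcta
The windows of Twist1 and Vim and the 4 windows of Zeb2 held no match. That of Vim lies inside the gene span that GENCODE M21 gives, since the RefSeq start is further downstream. So do those of Zeb2, apart from the window at chr2:45117443-45117692. Of 32851 windows of this length over all genes, 17.2% held at least 1 of these hexamers, 2.06% held 2 or more, and 66.2% held a CANNTG of any kind. A match is a match of letters and no evidence of binding in these cells.

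The values are TPM, transcript abundance scaled to a total of 1000000 in each library and already divided by transcript length, so levels of different genes can be set side by side. Read counts were not used here, so the depth of each library is unknown and a gene at 0 is only listed at 0. Between 10875 and 11218 genes per library reached 1 TPM. Differences are log2 fold changes of TPM + 1 from a limma model over all 9 libraries, which understate the change of low genes, and a gene is said to rise or fall when its Benjamini-Hochberg adjusted p over the 11287 genes is under 0.05. A differentially expressed gene (DEG) also had an absolute log2 fold change above 1. In MC38-LM3b the median of all tested genes lay 0.21 above MC38-P and 0.21 above MC38-LM3a on the log2 scale, and values as deposited for MC38-LM3b are to be read beside this shift. Libraries also differed along transcript length, as described after the main results, and values corrected for GC content and length are given for the 9 genes where they change a call and as counts for the wider lists. Since MC38-P serves as control for both derivatives, the comparisons with it are not independent of each other. The replicates of a group come from the same line. Standard errors and p-values thus measure spread between replicates of a line, and not between independently selected lines. In bulk RNA a smaller share of cells that express a gene and less RNA per cell cannot be told apart.

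All 3 groups had the profile of cells with very high vimentin and almost no E-cadherin. Vim lay at the 99.8 percentile of all listed genes, with 2730 to 3491 TPM, and Cdh1 was at 0.08 TPM or less in every library and listed at 0 in 5 of the 9. In the parental cells the order of mean levels was Vim, Fn1, Cdh2, Twist1, Snai1, Zeb1, Zeb2, Epcam, Snai2 and Cdh1, and the ranges of Fn1, Cdh2 and Twist1 overlapped there, as did those of Snai1 and Zeb1 and those of Zeb2 and Epcam. In MC38-LM3a Fn1 stood behind Zeb1 and Snai1, its range overlapping both of theirs, and in MC38-LM3b it came just after Zeb1 and before Snai1, overlapping neither. Epcam came after Snai2 in both derivatives, with no overlap between the pair in any of the 3 groups.

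**Figure D1:**
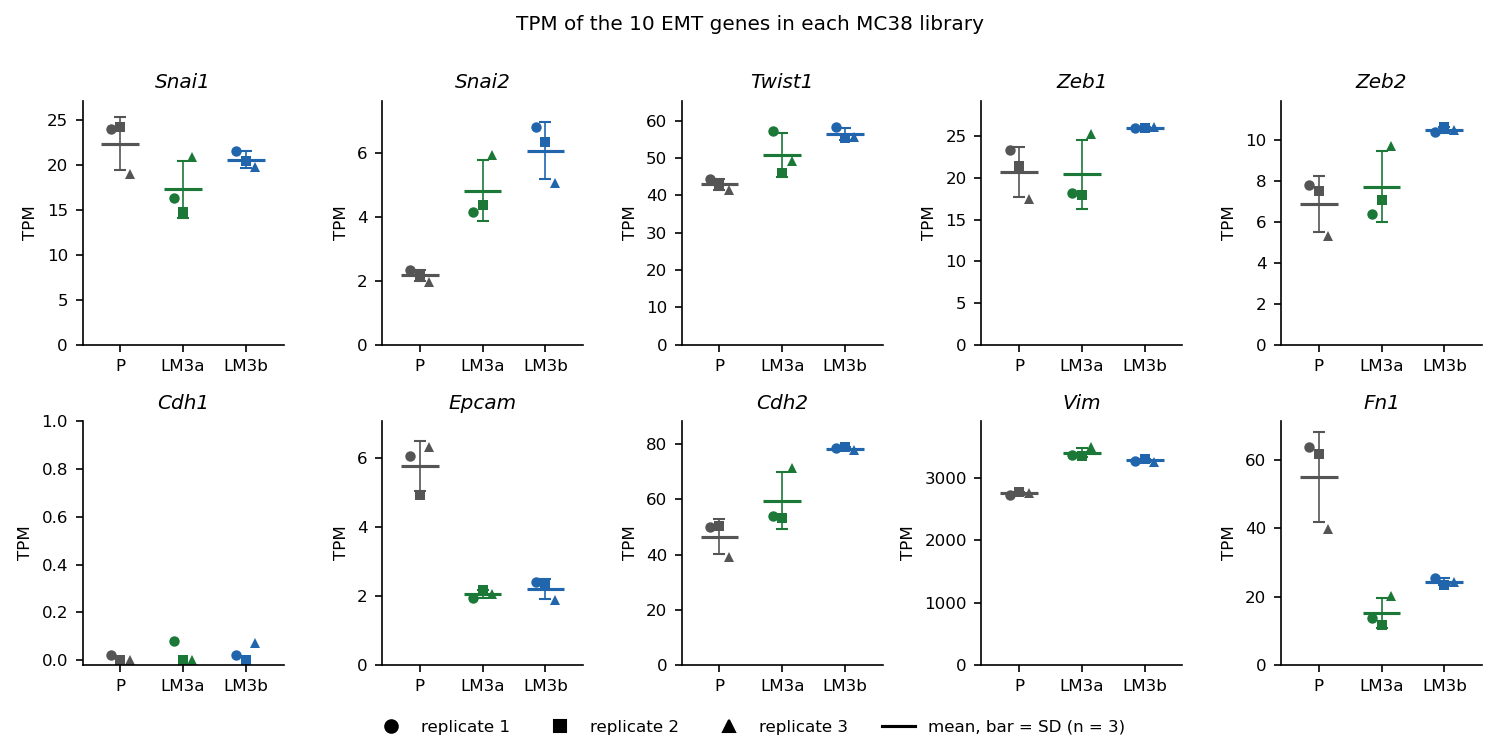
TPM of each of the 10 EMT genes (vertical axis, from 0, a scale of its own per panel) in the 3 libraries each of MC38-P (grey), MC38-LM3a (green) and MC38-LM3b (blue), with the mean and SD (n = 3) except for Cdh1, where only the library values are drawn. Snai2, Twist1, Cdh2 and Vim were higher and Epcam and Fn1 lower in every derivative library than in every parental one, and Cdh1 stayed at 0.08 TPM or less throughout.

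Against MC38-P, 4 of the 9 tested genes passed the test in MC38-LM3a, where 28.0% of all genes did. Snai2 and Vim rose (14.1% of all genes rose) and Epcam and Fn1 fell (13.8% fell). Epcam and Fn1 were DEGs, a class that held 2.89% of all genes. In MC38-LM3b 7 of the 9 passed, where 46.7% of all genes did: Snai2, Twist1, Zeb2, Cdh2 and Vim rose (35.6% of all genes rose) and Epcam and Fn1 fell (11.2% fell). Snai2, Epcam and Fn1 were DEGs there, with 3.93% of all genes. For the 9 genes the median log2 fold changes were 0.14 and 0.32, beside -0.00016 and 0.21 over all tested genes. In MC38-LM3a 4 of the 9 genes had all 3 values above the parental range (20.3% of all genes) and 2 had all below it (15.9%). In MC38-LM3b 6 lay wholly above (51.3%) and 2 wholly below (15.4%). On values corrected for GC content and length, 8 of the 9 passed in MC38-LM3a, where 52.3% of all genes did, and 6 of the 9 in MC38-LM3b, where 58.5% did.

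Among the factors, Snai2 changed most. Snai2 encodes Slug, a Snail-family repressor of cell adhesion genes, and its gene (NCBI Gene 20583) lies at chr16:14705852-14709385 on the plus strand of GRCm38. It measured 2.34, 2.18 and 1.97 TPM in MC38-P, 4.16, 4.37 and 5.92 TPM in MC38-LM3a, and 6.80, 6.34 and 5.06 TPM in MC38-LM3b. Every derivative library was above every parental one, while the derivatives overlapped. On the log2 scale MC38-LM3a was higher by 0.87 (SE 0.146, adjusted p = 0.00146, limma) and MC38-LM3b by 1.15 (SE 0.146, adjusted p = 0.00018). Corrected for GC content and length, the rises were 0.76 and 0.91, so that Snai2 was no longer a DEG in MC38-LM3b.

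Snai1, the gene of the Snail repressor (NCBI Gene 20613, chr2:167538195-167542814, plus strand), did not rise with its relative. Its levels were 23.9, 24.2 and 18.9 TPM in MC38-P, 16.3, 14.7 and 20.8 TPM in MC38-LM3a, and 21.6, 20.4 and 19.7 TPM in MC38-LM3b. The 3 groups overlapped. Log2 fold changes were -0.36 for MC38-LM3a (95% interval -0.66 to -0.06, adjusted p = 0.0745) and -0.11 for MC38-LM3b (-0.41 to 0.19, adjusted p = 0.524). After the correction the MC38-LM3a difference of -0.31 passed the test (adjusted p = 0.0381), as it did without MC38-P replicate 3 (-0.47) or without MC38-LM3a replicate 3 (-0.49), after centring on the median (-0.36) and after quantile normalization (-0.35). The MC38-LM3b difference passed under the same centring (-0.33) and quantile normalization (-0.35), and not after the correction (-0.14).

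Within a library, the ratio of Snai1 to Snai2 TPM was 10.2, 11.1 and 9.61 in MC38-P, 3.91, 3.37 and 3.52 in MC38-LM3a, and 3.17, 3.21 and 3.90 in MC38-LM3b. It thus averaged 10.3 ± 0.743 (SD, n = 3) in the parental cells, and 3.60 ± 0.280 and 3.43 ± 0.407 in the derivatives. The parental values stood clear of all others and the derivatives overlapped. A common scale factor of a library cancels in this ratio and in those below, but differences between libraries along GC content and length do not. The transcripts of Snai1 and Snai2 hold 59.8% and 42.6% GC. Snai1 remained the more abundant of the pair in all 9 libraries.

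**Figure D2:**
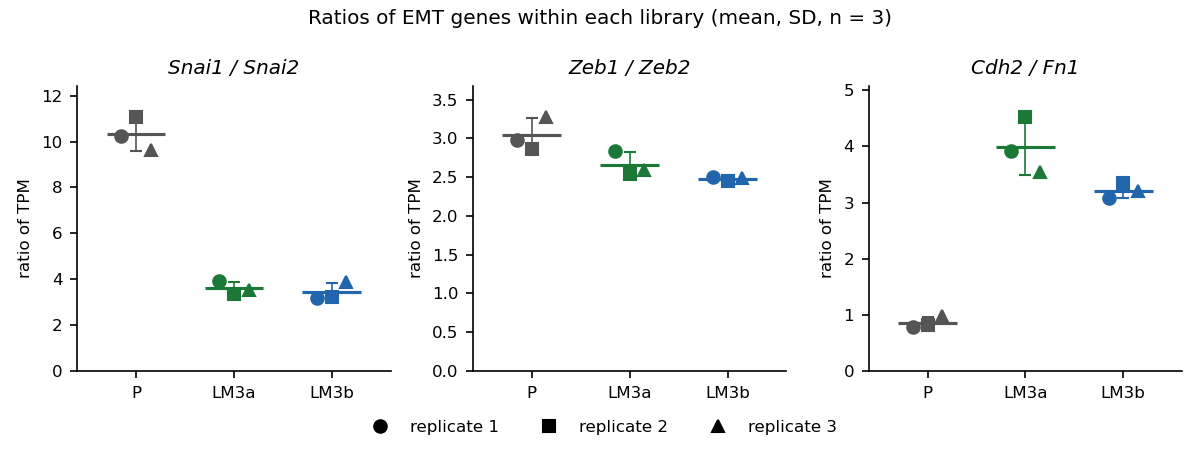
Ratios of TPM within each library (vertical axes, from 0) for Snai1 to Snai2, Zeb1 to Zeb2 and Cdh2 to Fn1, with the mean and SD (n = 3) per group and a symbol per replicate. The Snai1 to Snai2 ratio was 9.61 to 11.1 in MC38-P and 3.17 to 3.91 in the derivatives, and the Cdh2 to Fn1 ratio was below 1 in MC38-P and 3.08 or more in every derivative library.

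Twist1, a basic helix-loop-helix factor that drives mesenchymal gene programs (NCBI Gene 22160, chr12:33957671-33959829, plus strand), was the most abundant of the 5 factors in every library. It had 44.4, 43.1 and 41.3 TPM in MC38-P, 57.4, 46.0 and 49.2 TPM in MC38-LM3a, and 58.3, 55.4 and 55.7 TPM in MC38-LM3b. No derivative value fell into the parental range. MC38-LM3b rose by 0.39 (SE 0.0868, adjusted p = 0.00488), while the difference of 0.23 in MC38-LM3a had an adjusted p of 0.0687. With the correction, MC38-LM3a passed at 0.28 (adjusted p = 0.00338) and MC38-LM3b at 0.35. The MC38-LM3b call was lost when libraries were centred on the median (0.16, adjusted p = 0.206) or quantile normalized (0.20, adjusted p = 0.103).

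Zeb1 and Zeb2 encode zinc-finger, homeodomain repressors that the miR-200 family targets in epithelial cells. Zeb1 (NCBI Gene 21417, chr18:5591860-5775467, plus strand) had 23.3, 21.5 and 17.4 TPM in MC38-P, 18.2, 17.9 and 25.2 TPM in MC38-LM3a, and 26.0, 26.0 and 26.1 TPM in MC38-LM3b. Its replicates were far apart in MC38-P and MC38-LM3a and almost equal in MC38-LM3b, which lay above all others. Neither difference from MC38-P passed: -0.03 in MC38-LM3a (95% interval -0.34 to 0.29, adjusted p = 0.917) and 0.32 in MC38-LM3b (0.01 to 0.64, adjusted p = 0.0801). Corrected for GC content and length, the log2 values became 4.53, 4.49 and 4.50 in MC38-P, 4.51, 4.50 and 4.57 in MC38-LM3a, and 4.55, 4.57 and 4.58 in MC38-LM3b. The corrected differences were 0.02 (95% interval -0.07 to 0.12) and 0.06 (-0.04 to 0.16), and their standard error shrank from 0.141 to 0.0430.

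Zeb2 (NCBI Gene 24136, chr2:44983632-45117395, minus strand) had 7.83, 7.52 and 5.31 TPM in MC38-P, 6.41, 7.06 and 9.72 TPM in MC38-LM3a, and 10.4, 10.6 and 10.5 TPM in MC38-LM3b. As with Zeb1, MC38-P replicate 3 was the lowest and MC38-LM3a replicate 3 the highest of its group. The rise in MC38-LM3b was 0.56 (SE 0.164, adjusted p = 0.0182), and the difference in MC38-LM3a was 0.14 (adjusted p = 0.571). Leaving out MC38-P replicate 3 took the MC38-LM3b rise to 0.41 (adjusted p = 0.057), and leaving out any MC38-LM3b library took it over the threshold too (adjusted p from 0.0517 to 0.0566). On corrected values Zeb2 passed in both derivatives with similar size, 0.24 (adjusted p = 0.00422) and 0.27 (adjusted p = 0.0018). The Zeb1 to Zeb2 ratio averaged 3.04 ± 0.218 in the parental cells and 2.66 ± 0.160 and 2.48 ± 0.0276 in the derivatives (SD, n = 3), and no derivative value reached the parental range of 2.86 to 3.28.

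Epcam, the epithelial cell adhesion molecule (NCBI Gene 17075, chr17:87635979-87651129, plus strand; its upstream sequence is printed above), was the epithelial gene that could be tested. It fell from 6.05, 4.93 and 6.31 TPM in MC38-P to 1.93, 2.17 and 2.05 TPM in MC38-LM3a and to 2.40, 2.35 and 1.87 TPM in MC38-LM3b. The parental range stood apart from both derivatives, which overlapped each other. Its log2 fold changes were -1.14 (SE 0.125, adjusted p = 9.6e-05) for MC38-LM3a and -1.07 (SE 0.125, adjusted p = 0.0001) for MC38-LM3b, and -1.17 and -1.20 on corrected values. Mean levels were 5.76 ± 0.733, 2.05 ± 0.120 and 2.21 ± 0.293 TPM (SD, n = 3).

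Cdh1, the adhesion molecule of epithelial adherens junctions (NCBI Gene 12550, chr8:106603351-106670246, plus strand), was listed at 0.02, 0 and 0 TPM in MC38-P, at 0.08, 0 and 0 TPM in MC38-LM3a, and at 0.02, 0 and 0.07 TPM in MC38-LM3b. At this level no difference can be read. Near-absent E-cadherin transcript was thus already a feature of the parental cells.

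The mesenchymal genes did not move as 1 group. Cdh2, the cadherin of mesenchymal and neural cells (NCBI Gene 12558, chr18:16588877-16809246, minus strand), had 50.1, 50.3 and 39.3 TPM in MC38-P, 53.8, 53.4 and 71.5 TPM in MC38-LM3a, and 78.6, 78.9 and 77.8 TPM in MC38-LM3b. The 3 groups were stacked without overlap. The rise was 0.75 in MC38-LM3b (SE 0.125, adjusted p = 0.000931), and the 0.35 in MC38-LM3a missed the threshold (95% interval 0.07 to 0.62, adjusted p = 0.0621). Corrected values gave rises of 0.39 (adjusted p = 2.0e-05) in MC38-LM3a and 0.52 (adjusted p = 2.2e-06) in MC38-LM3b, with a standard error of 0.0400.

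Vim (NCBI Gene 22352, chr2:13573927-13582826, plus strand), already the most abundant of these transcripts, had 2730, 2776 and 2767 TPM in MC38-P, 3374, 3352 and 3491 TPM in MC38-LM3a, and 3269, 3309 and 3264 TPM in MC38-LM3b. All 3 ranges were separate, with MC38-LM3a the highest. Its rise was small, 0.30 in MC38-LM3a (SE 0.0445, adjusted p = 0.000613) and 0.25 in MC38-LM3b (SE 0.0445, adjusted p = 0.00133). The MC38-LM3b rise lay close to the 0.21 shift of all genes and was lost on corrected values (0.12, adjusted p = 0.0774) and after centring on the median (0.03, adjusted p = 0.865). After that centring the MC38-LM3a call was lost as well, at 0.30 (adjusted p = 0.0743).

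Fn1, the matrix ligand of several integrins (NCBI Gene 14268, chr1:71585520-71653200, minus strand), went the other way. Its levels were 63.8, 61.8 and 39.9 TPM in MC38-P, 13.7, 11.8 and 20.2 TPM in MC38-LM3a, and 25.5, 23.5 and 24.3 TPM in MC38-LM3b. The parental libraries were all above the derivatives, and MC38-LM3b was above MC38-LM3a. It fell by 1.79 (SE 0.202, adjusted p = 0.00012) in MC38-LM3a and by 1.11 (SE 0.202, adjusted p = 0.00149) in MC38-LM3b on the log2 scale, and by 1.69 and 1.42 on corrected values. The Cdh2 to Fn1 ratio averaged 0.861 ± 0.108 in the parental cells and 4.00 ± 0.501 and 3.21 ± 0.137 in the derivatives (SD, n = 3), and the derivative ranges were separate from each other too.

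**Figure D3:**
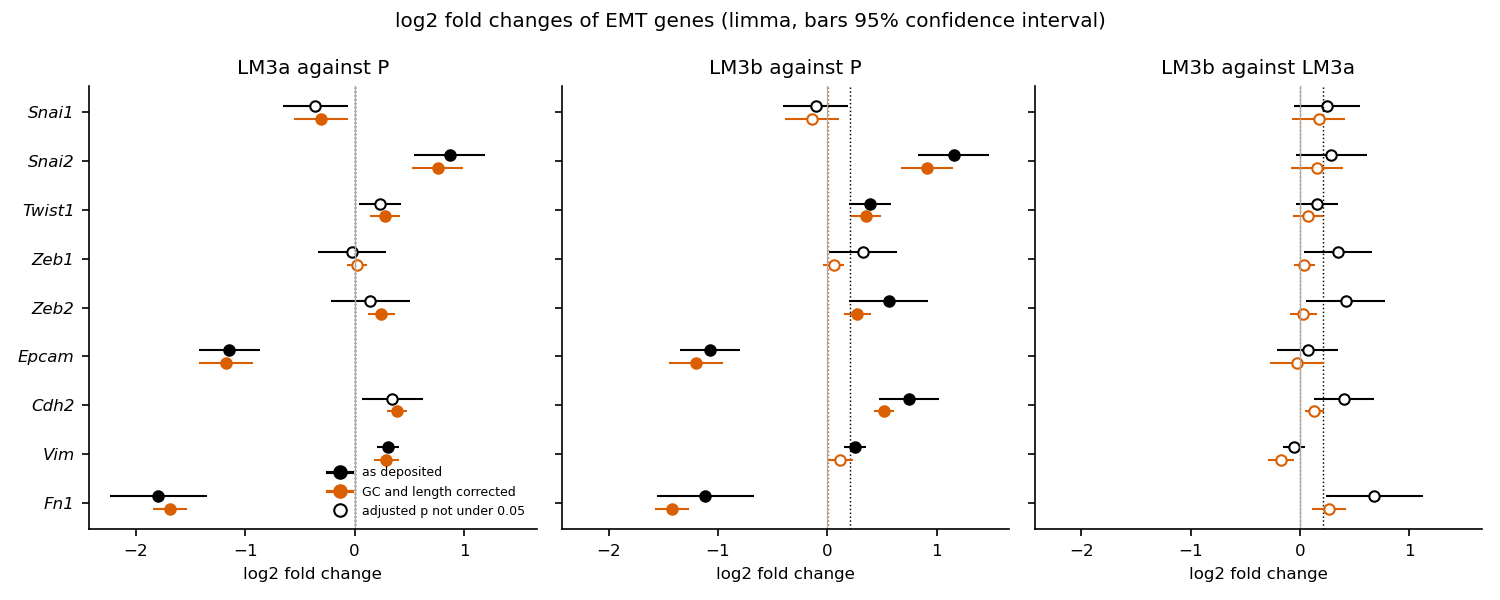
log2 fold changes (horizontal axes, limma, bars 95% intervals) of the 9 tested genes in the 3 comparisons, for values as deposited (black) and corrected for GC content and transcript length (orange), where filled symbols have an adjusted p under 0.05 and dotted lines give the median of all tested genes. Epcam and Fn1 lie below -1 and Snai2 above 0.7 in both derivatives on either scale, and no symbol is filled between the derivatives.

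Between MC38-LM3b and MC38-LM3a, 0 of the 9 genes passed the limma test, where 0.0532% of all genes did. At an unadjusted p under 0.05 there were 4 of 9 (Zeb1, Zeb2, Cdh2 and Fn1), beside 38.1% of all genes. These 4 were also the genes whose ranges did not overlap with MC38-LM3b higher (38.4% of all genes), and Vim was the gene with MC38-LM3b lower (3.60%). Fn1 had the largest difference, 0.68 (95% interval 0.23 to 1.13, adjusted p = 0.119), followed by Zeb2 at 0.42 (0.05 to 0.78), Cdh2 at 0.40 (0.13 to 0.68) and Zeb1 at 0.35 (0.04 to 0.66). Corrected values left 0.26 (0.11 to 0.42) for Fn1, 0.13 (0.04 to 0.22) for Cdh2, and 0.03 and 0.04 for Zeb2 and Zeb1, with 0 of 9 passing (0.207% of all genes). For Snai2 the difference was 0.29 (-0.04 to 0.61), for Snai1 0.25 (-0.05 to 0.55), for Twist1 0.15 (-0.04 to 0.35), for Epcam 0.07 (-0.21 to 0.34) and for Vim -0.05 (-0.15 to 0.04). Quantile normalization turned the last 3 to -0.02, -0.16 and 0.15. For Vim the difference was larger in the same direction on corrected values, -0.17 (-0.29 to -0.06, adjusted p = 0.143, limma), and after centring on the median, -0.28 (adjusted p = 0.188). This count rested on 1 library: without MC38-LM3a replicate 3, 6 of the 9 genes passed (Snai1, Snai2, Zeb1, Zeb2, Cdh2 and Fn1, all higher in MC38-LM3b), together with 6351 of 11256 genes tested.

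The 4 genes that differed most between the derivatives are those with the longest transcripts among the 9. The longest coding transcript in the GENCODE M21 annotation measured 9124 nucleotides for Zeb2, 8315 for Fn1, 5801 for Zeb1 and 4843 for Cdh2, against 1621 for Snai1, 1628 for Twist1, 2021 for Snai2, 2040 for Epcam and 2193 for Vim, with a median of 3144 over all tested genes. Across 11096 genes the difference between the derivatives had a Spearman correlation with transcript length of 0.64, the difference of MC38-LM3b from MC38-P one of 0.24 and that of MC38-LM3a from MC38-P one of -0.12, given as descriptions since genes are not independent replicates. Among replicates, MC38-P replicate 3 departed from the other parental libraries with a correlation of -0.65 with length, and MC38-LM3a replicate 3 from its group with 0.67. In the latter library Zeb1 was 0.46, Zeb2 0.47, Cdh2 0.41 and Fn1 0.63 above the mean of the other replicates on the log2 scale, with Snai1 at 0.41 and Snai2 at 0.39, and Epcam, Vim and Twist1 within 0.06. In MC38-P replicate 3 Zeb1 was lower by 0.34, Zeb2 by 0.46, Cdh2 by 0.34, Fn1 by 0.64 and Snai1 by 0.33. RNA integrity was not measured in the data used here, and its part in these differences was not tested.

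**Figure D4:**
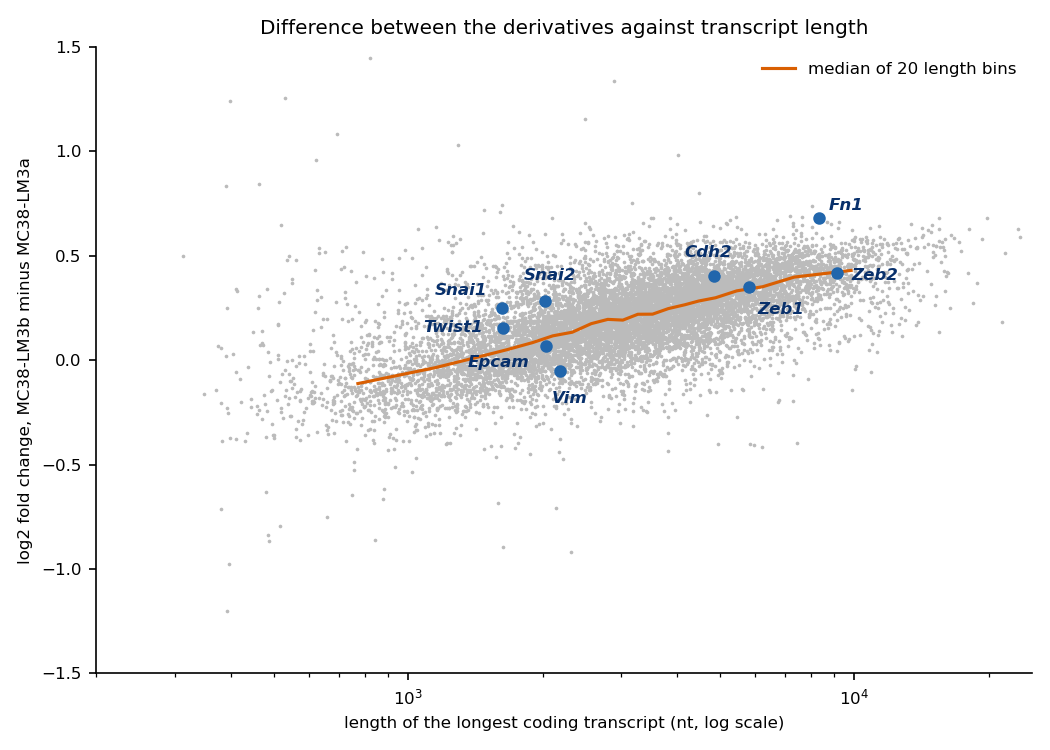
log2 fold change of MC38-LM3b minus MC38-LM3a (vertical axis) against the length of the longest coding transcript (horizontal, nucleotides, log scale) for 11096 genes (grey, 7 of them outside the plotted range), with the median of 20 length bins (orange) and the 9 tested EMT genes (blue). Zeb1, Zeb2 and Cdh2 lie near the line of genes of their length, and Fn1, at 0.68, lies above it.

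The wider epithelial program was measured from lists of regulators and structural genes. The labels call the cells epithelial. Of 34 structural epithelial genes, 32 were listed and 10 tested. Krt8 and Krt18, the keratin pair of simple epithelia, were abundant, from 744 to 1206 TPM and from 707 to 981 TPM, while the 22 that were listed and not tested did not exceed 1.03 TPM. Among these, named after their values were seen, were the claudins Cldn3, Cldn4 and Cldn7 and the intestinal cadherin Cdh17. Of 20 epithelial transcription and splicing factors, 18 were listed and 7 tested. The splicing factors Esrp1 and Esrp2, which maintain epithelial isoforms, did not exceed 0.03 and 0.09 TPM.

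Of the 7 tested epithelial factors, Cdx2, the intestinal homeobox factor, met the filter through MC38-P alone and so could only be lower in the derivatives; it is described without a test. It had 2.14, 2.86 and 1.80 TPM in MC38-P, 0.49, 0.48 and 0.92 TPM in MC38-LM3a and 0.56, 0.39 and 0.28 TPM in MC38-LM3b. Of the other 6, 2 fell in both derivatives (9.07% of all genes did) and 0 rose in both (13.3% did) with the limma test, and the median was -0.13 for MC38-LM3a and 0.03 for MC38-LM3b, beside -0.00016 and 0.21 over all genes. Elf3, an ETS factor of epithelial cells, had 19.0, 15.9 and 14.7 TPM in MC38-P and 6.82 to 8.73 TPM in the derivatives, with log2 fold changes of -0.97 (adjusted p = 0.00028) and -0.91 (adjusted p = 0.00029). Grhl2, a grainyhead factor that activates Cdh1 in epithelia and opposes Zeb1, had 5.20, 4.47 and 3.50 TPM in MC38-P and 1.43 to 2.43 TPM in the derivatives, with -0.96 (adjusted p = 0.000713) and -0.71 (adjusted p = 0.00276). For Elf3 and Grhl2 no derivative library reached the parental range, and the falls passed on corrected values too. Of the 6, 2 fell and 0 rose in both on corrected values, where 22.4% and 23.2% of all genes did.

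Among the 10 tested structural epithelial genes, 2 rose in both derivatives (Ocln and Pkp2; 13.3% of all genes did) and 2 fell in both (Krt8 and Krt18; 9.07% did), with a list median of 0.23 for MC38-LM3a and 0.22 for MC38-LM3b. Pkp2, plakophilin 2 of desmosomes, had 57.0, 54.8 and 48.1 TPM in MC38-P and 66.1 to 80.2 TPM in the derivatives, with rises of 0.43 (adjusted p = 0.00369) and 0.57 (adjusted p = 0.000528). Ocln, the tight junction protein occludin, had 5.89, 4.90 and 4.82 TPM in MC38-P and 6.61 to 8.66 TPM in the derivatives, with rises of 0.37 (adjusted p = 0.0307) and 0.55 (adjusted p = 0.003). Krt8 stood at 1047 to 1206 TPM in MC38-P and at 744 to 851 TPM in the derivatives, and changed by -0.48 (adjusted p = 0.000465) and -0.56 (adjusted p = 0.00013). Krt18 changed by -0.24 (adjusted p = 0.0256) and -0.32 (adjusted p = 0.00424). On corrected values these counts were 4 and 4, where 23.2% of all genes rose and 22.4% fell in both.

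Among 17 tested of 21 other factors linked to EMT, 0 rose and 1, Foxc1, fell in both derivatives by limma (13.3% and 9.07% of all genes), with a list median of -0.18 for MC38-LM3a and 0.06 for MC38-LM3b. Foxc1, a forkhead factor, went from 4.37, 4.81 and 3.87 TPM in MC38-P to 1.94, 2.36 and 3.05 TPM in MC38-LM3a and 2.94, 2.80 and 2.89 TPM in MC38-LM3b, a log2 fold change of -0.64 (adjusted p = 0.00536) and -0.46 (adjusted p = 0.0185). All 6 derivative values of Foxc1 lay below the parental ones. The count of falls varied with the setting, from 0 without any 1 of the MC38-LM3b libraries or without MC38-P replicate 2 to 5 on corrected values (22.4% of all genes fell in both) and 6 after quantile normalization. Snai3, of the Snail family, was counted as 1 rise in both on corrected values, but it had 0.93, 0.75 and 0.77 TPM in MC38-P and 1.04 to 1.78 TPM in the derivatives, so that the filter at 1 TPM favored a rise and no call is read from it. At an adjusted p under 0.05, 4 of the 17 fell in MC38-LM3a (13.8% of all genes), and 4 rose (35.6%) and 1 fell (11.2%) in MC38-LM3b. These counts include Snai3 and Prrx1, a homeobox factor at 0.72 to 0.90 TPM in MC38-LM3a and 1.13 to 1.46 TPM in MC38-P. Of the 15 genes without a group wholly under 1 TPM, 3 fell in MC38-LM3a, 3 rose and 1 fell in MC38-LM3b, and 4 fell in both on corrected values.

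Of 35 structural and matrix genes of mesenchymal cells, 25 were tested, of which 2 rose and 5 fell in both derivatives, where 13.3% of all genes rose and 9.07% fell. Their median was -0.12 for MC38-LM3a and 0.21 for MC38-LM3b, the latter close to that of all genes. Nt5e, the ecto-5'-nucleotidase CD73, went from 9.11, 8.03 and 6.36 TPM in MC38-P to 1.17, 0.88 and 1.66 TPM in MC38-LM3a and 1.87, 1.22 and 1.30 TPM in MC38-LM3b, with log2 fold changes of -1.98 (adjusted p = 2.1e-05) and -1.84 (adjusted p = 2.6e-05). Col1a1, a chain of collagen I, went from 15.6, 16.0 and 10.4 TPM to 3.52 to 5.03 TPM, with -1.55 (adjusted p = 9.8e-05) and -1.48 (adjusted p = 9.9e-05). Col3a1, the chain of collagen III, went from 154, 145 and 123 TPM to 48.6 to 64.8 TPM, with -1.34 (adjusted p = 2.1e-05) and -1.19 (adjusted p = 3.6e-05). These 3 were DEGs in both derivatives, fell like Fn1 in every derivative library, and kept their calls on corrected values.

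The matrix genes that rose were Mmp3, the protease stromelysin 1, from 1.39, 1.58 and 1.14 TPM in MC38-P to 1.85 to 3.16 TPM in MC38-LM3a and 3.74 to 4.54 TPM in MC38-LM3b, with 0.54 (adjusted p = 0.0226) and 1.08 (adjusted p = 0.00034), and Sparc, a collagen-binding matricellular protein, from 738 to 832 TPM to 876 to 1009 TPM, with 0.19 (adjusted p = 0.0325) and 0.31 (adjusted p = 0.00159). The remaining genes that fell in both were Acta2 and S100a4, named here after their values were seen. Acta2, smooth muscle actin, had 3.87 to 4.32 TPM in MC38-P and 1.05 to 2.04 TPM in the derivatives, and S100a4, a calcium-binding protein also known as fibroblast-specific protein 1, had 1392 to 1624 TPM and 804 to 1185 TPM. In MC38-LM3b 10 of the 25 rose, where 35.6% of all genes did, and 2 of the 25 rose in MC38-LM3a, where 14.1% did. In MC38-LM3a 9 of the 25 fell, beside 13.8% of all genes, and in MC38-LM3b 6 fell, beside 11.2%. On corrected values 7 rose and 10 fell in both derivatives, beside 23.2% and 22.4% of all genes.

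**Figure D5:**
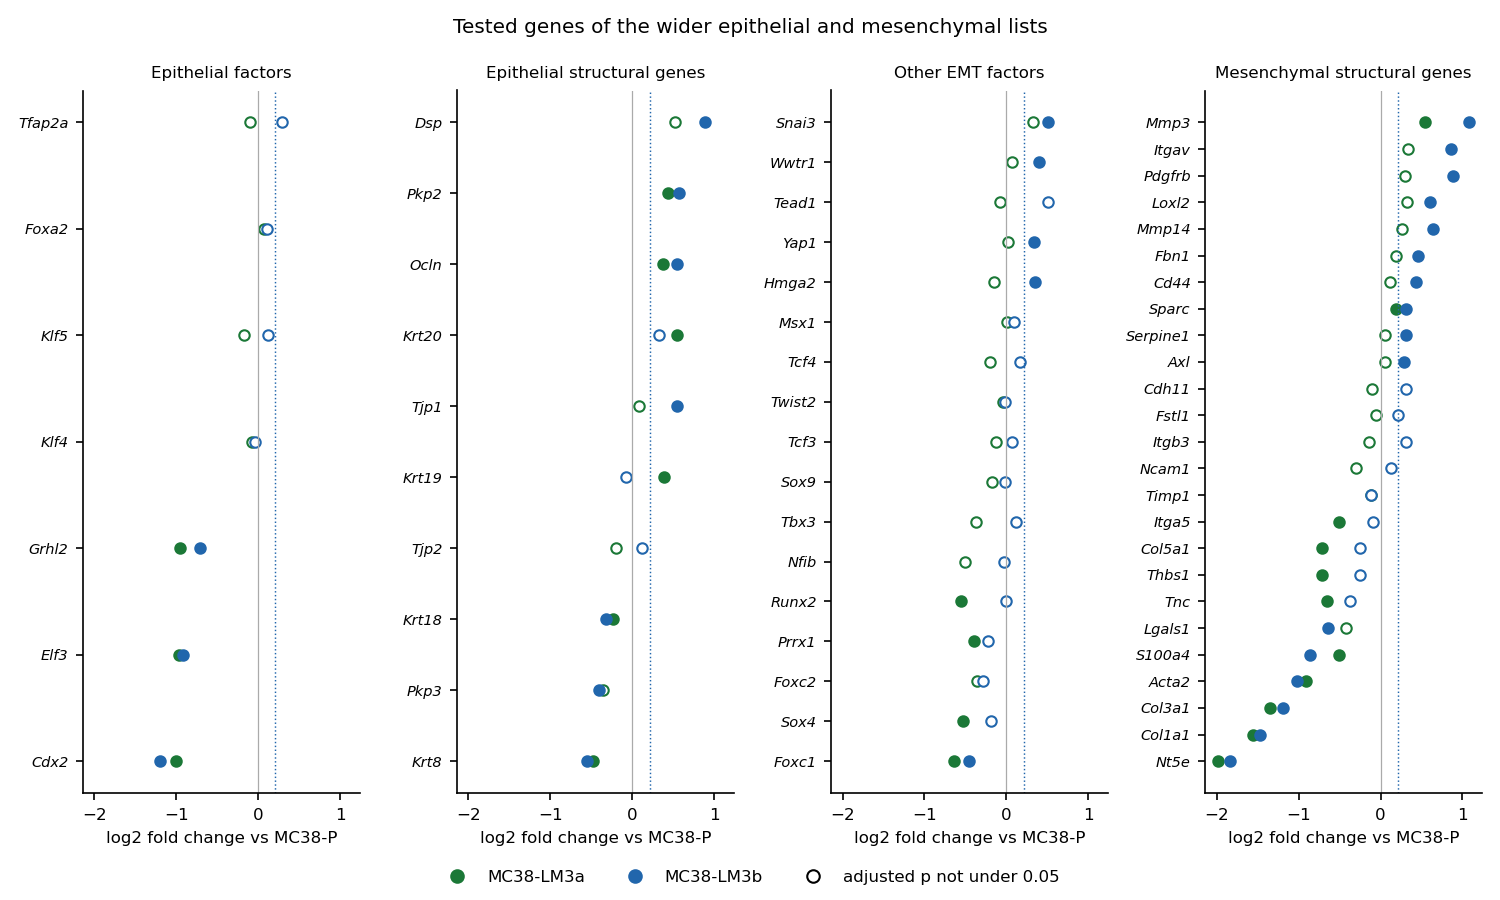
log2 fold changes against MC38-P (horizontal axes) of every tested gene of 4 lists, in MC38-LM3a (green) and MC38-LM3b (blue), ordered by the mean of the derivatives, where filled symbols have an adjusted p under 0.05 and the dotted line is the 0.21 median of MC38-LM3b. Elf3 and Grhl2 lie between -0.71 and -0.97, and in the mesenchymal list Nt5e, Col1a1 and Col3a1 lie between -1.19 and -1.98 while Mmp3 lies at 0.54 and 1.08. No call is read from the symbols of Cdx2, which met the filter through MC38-P alone and had every derivative library under 1 TPM. The same holds for Snai3, Prrx1 and Krt20, each of which had a group wholly under 1 TPM.

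Partners of the cadherins and of the factors were taken as further lists. Of 16 adherens junction genes, 12 were tested and 0 rose or fell in both derivatives by limma (13.3% and 9.07% of all genes). Of the 12, 2 were lower in MC38-LM3a (13.8% of all genes) and 3 higher in MC38-LM3b (35.6%), with medians of -0.09 and 0.13. On corrected values 2 rose and 4 fell in both, beside 23.2% and 22.4% of all genes. Of 20 corepressors and regulators of Snail stability, all tested, 2 rose in both, near the 13.3% of all genes, and 0 fell in both, beside 9.07%. Their medians were -0.01 and 0.21. On corrected values these counts were 3 and 5, beside 23.2% and 22.4% of all genes. Pak1, a kinase that phosphorylates Snail, had 29.0, 27.1 and 22.0 TPM in MC38-P, 36.2, 33.0 and 40.0 TPM in MC38-LM3a and 45.5, 41.9 and 42.6 TPM in MC38-LM3b, rises of 0.47 (adjusted p = 0.00915) and 0.72 (adjusted p = 0.000591). Hdac1, a deacetylase recruited by Snail, rose by 0.28 (adjusted p = 0.00541) and 0.28 (adjusted p = 0.00338), from 232 to 263 TPM to 288 to 304 TPM. The MC38-LM3b rise of Hdac1 lay close to the 0.21 shift of all genes. On corrected values Hdac1 rose by 0.23 in MC38-LM3a and by 0.14 in MC38-LM3b (adjusted p = 0.0165, limma).

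Genes of cells that a liver metastasis could contribute were measured beside these. For 12 stellate cell and fibroblast genes, of which 10 were listed, the summed level was 137 to 175 TPM in MC38-P, 55.4 to 73.9 TPM in MC38-LM3a and 67.1 to 73.9 TPM in MC38-LM3b. Nearly all of it was Col3a1 and Col1a1, and Dcn, the fibroblast proteoglycan decorin, was at 0.13 TPM or less and listed at 0 in every derivative library. Pdgfrb, the receptor of platelet-derived growth factor on pericytes and stellate cells, went the other way, from 1.74, 1.73 and 1.15 TPM in MC38-P to 1.69 to 2.42 TPM in MC38-LM3a (0.30, adjusted p = 0.135, limma) and 3.48 to 3.80 TPM in MC38-LM3b (0.88, adjusted p = 0.000695). On corrected values it rose in both, by 0.38 and 0.63. Among listed genes of this list that were not tested, Des, Hgf and Dpt, named after their values were seen, were lower in every derivative library than in every parental one. Des had 0.85 to 0.93 TPM in MC38-P and 0.19 to 0.30 TPM in the derivatives, and Hgf 0.63 to 0.89 and 0.11 to 0.30 TPM. Dpt had 0.64 to 1.06 and 0.07 to 0.51 TPM. Reln had 0.01 to 0.02 TPM in MC38-P and 0.05 to 0.14 TPM in the derivatives. With depth unknown and values this low, no difference is read from these untested genes. For 12 hepatocyte genes (9 listed) the sums were 1.81 to 4.29 TPM over all libraries, with Alb at 0.29 TPM or less. For 10 endothelial genes (7 listed) they were 1.53 to 2.55 TPM. For 11 hematopoietic genes (7 listed) the sum rose from 14.2 to 15.9 TPM in MC38-P to 27.9 to 33.9 and 37.0 to 38.9 TPM, nearly all of it Itgb2, with Ptprc, the pan-leukocyte marker, at 0.09 TPM or less in every library. For 10 macrophage genes (5 listed) it rose from 39.3 to 40.9 TPM to 49.2 to 54.1 and 56.0 to 60.4 TPM, nearly all of it Cd68 and Cd14, the tested genes. Mrc1, not tested, had 0.52 to 0.79 TPM in MC38-P and 0.33 to 0.47 TPM in the derivatives, and no difference is read from it either. Csf1r was at 0.14 TPM or less and Lyz2 at 0.28 TPM or less. Adgre1, C1qa, C1qb, C1qc and Clec4f were not listed. For 7 cholangiocyte genes besides Epcam (6 listed) the sum was 351 to 379 TPM in MC38-P, 337 to 349 TPM in MC38-LM3a and 339 to 345 TPM in MC38-LM3b. In MC38-LM3a Krt19 rose by 0.39 (adjusted p = 0.00358, limma), and Spp1 fell, at -0.41 (adjusted p = 0.0039). Neither passed in MC38-LM3b, with -0.08 and -0.12. On corrected values Spp1 fell in both, at -0.54 and -0.33. Corrected Krt19 was at 0.40 in MC38-LM3a and -0.13 in MC38-LM3b. Its corrected difference of MC38-LM3b from MC38-LM3a, -0.52, passed (adjusted p = 0.0256, limma), where 0.207% of all genes did. The part of such cells in the changes of Snai2, Epcam and Fn1 was not tested.

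The genes whose log2(TPM + 1) followed each member most closely over the 9 libraries were Dusp19 and Irgm2 for Snai2 (Pearson r of 0.994 and 0.993), Glis3 and Rara for Snai1 (0.991 and 0.990), and Tle5 and Zdhhc12 for Twist1 (0.982 and 0.973). Zeb1 was followed by Setd7 and Epg5 (0.999 and 0.998), Zeb2 by Nckap1 and Rfxank (0.998 and 0.997), Cdh2 by Hsp90b1 and Lrp1 (0.999 and 0.998), Epcam by Dscc1 and Sncg (0.992 and 0.989), Vim by Gng2 and Cfap69 (0.997 and 0.991), and Fn1 by Alcam and Sh3bp4 (0.998 each). These are descriptions over libraries that share 3 groups and the trend along length. At r of 0.95 or more there were 1548 genes for Zeb1, 1427 for Zeb2, 1376 for Cdh2, 587 for Snai2, 371 for Fn1, 260 for Snai1, 187 for Epcam, 137 for Vim and 18 for Twist1.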

How the data were processed

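Libraries were made from poly(A)-selected RNA of 3 biological replicates per line and read on DNBSEQ instruments. The authors deposited TPM for each gene, 1 file per library, and no library was pooled. The submitters' processing notes name HISAT and the GRCm39 build, and the tool that made the TPM is not given in the sources used here. The study's methods name DESeq2, which needs counts and was not run.

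The tests used limma 3.58.1 (R 4.3.3) and log2(TPM + 1), with genes of at least 1 TPM in at least 3 libraries, 1 model of 3 group means, a trended variance and Benjamini-Hochberg adjustment over 11287 genes. The DEG thresholds are the study's. Offsets for GC content and length came from a loess fit of span 0.3 per library on the longest coding transcript of GENCODE M21 (GRCm38), found for 98.3% of tested genes, and they also centre each library. Gene coordinates are from that annotation, matched by NCBI Gene number. Upstream windows are from RefSeq (GRCm38.p6). Scripts were tested on simulated data of known fold changes.

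The members and lists were chosen with earlier results of these data known. From the list of other EMT factors, 1 gene was left out after its values were seen and is not reported here, so the counts of that list are a description of the genes kept. Named from each wider list were up to 3 largest rises and falls that passed in both derivatives, and for each tested member the 2 genes of highest Pearson correlation. Alternatives changed the pseudocount, filter, libraries in the model, replicate block, offsets, quantile normalization, centring, and left out each library. With depth unknown no counting error is given, and 3 replicates per group limit the precision.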

Additional observations from a re-analysis of the deposited data

How the results depend on the processing

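The count of members passing in MC38-LM3a, 4, became 8 with the correction for GC content and length and 7 with that correction and a replicate block, and ranged from 4 to 6 when 1 library was left out. In MC38-LM3b the count, 7, was 6 to 8 under every alternative. Between the derivatives 0 became 6 without MC38-LM3a replicate 3 and stayed 0 when any other library was left out, a range of 0 to 6, and under the remaining settings but 1. That 1, chosen after seeing the data, was the correction with a library left out: the correction without MC38-LM3a replicate 3 gave 8 members in MC38-LM3a and 4 between the derivatives, and without MC38-P replicate 3 it gave 8 and 0.

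Differences that changed sign were small. For Zeb1 in MC38-LM3a the log2 fold change became 0.021 with the correction, alone or with the block, 0.0086 with the correction and without MC38-P replicate 3, and -0.18 to 0.059 when 1 library was left out. For Zeb2 it ranged from -0.014 to 0.25 when 1 library was left out, the negative values being those without MC38-P or MC38-LM3a replicate 3. Between the derivatives Epcam became -0.029 with the correction, alone or with the block, -0.16 after quantile normalization, -0.15 after centring, and -0.059 and -0.030 with the correction and without MC38-LM3a or MC38-P replicate 3. Twist1 became -0.021 after quantile normalization and -0.069 after centring, and Vim 0.15 after quantile normalization. Of 513 differences recomputed over all alternatives, 446 kept their direction and side of the threshold, 37 came to pass, 12 ceased to pass and 18 changed sign. The causes were not tested.

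Replicate numbers did not pair the libraries: deviations of same-numbered libraries from their group means had correlations of -0.66 to 0.07. With the number as a block, 4, 6 and 0 members passed, Zeb2 in MC38-LM3b being the call lost (adjusted p = 0.0536). Where 1 library was left out, the remaining pair was assumed to vary like the other groups. Depth being unknown, no difference is read for Cdh1, which stayed under 1 TPM.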
